A study of Mus musculus with 2 samples.

Results

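Integrins are receptors in the cell membrane, each made of 1 alpha and 1 beta chain, that hold cells to the matrix around them and signal from it. Laminins are matrix proteins, each a trimer of an alpha, a beta and a gamma chain, and are the main adhesive proteins of the basement membrane under epithelia. The genes of both families were followed in mRNA sequencing of K-Ras-activated mouse lung cancer cells before and after restoration of *Runx3*. They were taken by symbol, as the genes named *Itga*, *Itgb*, *Lama*, *Lamb* or *Lamc* followed by a chain number or letter. Of the 23183 genes in each library, 36 taken in this way are described, of which 18 encode integrin alpha chains, 8 integrin beta chains and 10 laminin chains.

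The 2 libraries are 1 of KPR- cells, labelled RUNX3 -/- and 0 h, and 1 of KPR_restored cells, labelled RUNX3 -/+ and 16 h. Both come from an immortalized line of lung tumors. The mice carried *p53* flox/flox, *K-Ras* LSL-G12D/+ (an oncogenic allele that Cre switches on), *Runx3* flox/FSF, a Tomato reporter and the Flp ERT2 transgene, and were infected through the nose with adenovirus that expresses Cre from the *CMV* promoter. Cells of both libraries thus share active *K-Ras* and the loss of *p53* and of the floxed copy of *Runx3*, and whether the line is 1 clone is not given in the sources used here. In KPR- cells a *Frt-Stop-Frt* (FSF) cassette silences the other copy of *Runx3*, and 4-hydroxytamoxifen (4-OHT) activates the Flp ERT2 recombinase, which removes it. The labels list 1 μM 4-OHT for both libraries, although in the study it is the agent that turns KPR- into KPR_restored. Time in culture, 4-OHT and *Runx3* cannot be told apart between these libraries, and with 1 library per condition no difference has a replicate check.

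The deposited values are FPKM, which are fragments per kilobase of transcript scaled to the depth of the library, so that levels of different genes can be set side by side on this per-length scale. The steps of the low FPKM values gave a depth of about 21900000 fragments in KPR- and 22450000 fragments in KPR_restored. Differences are log2(FPKM + 0.005) in KPR_restored minus KPR-, and a gene is called higher or lower at 0.5 or more either way. Each difference is followed by its 95% counting interval from the estimated fragments, which covers counting error only. Reads without molecular identifiers are not independent molecules, so the interval may understate even that error. *Runx3* itself had 0.348 FPKM in KPR- and 0.349 FPKM in KPR_restored, from about 28 and 29 fragments. The difference of *Runx3* was 0.0074 (-0.79 to 0.82), so its level did not tell the libraries apart and does not check the labels. Of the epithelial genes, *Epcam* stood at 105 FPKM before and 91.6 FPKM after restoration, and *Cdh1* (E-cadherin) at 119 and 130 FPKM. The lung lineage markers *Sftpc*, *Sftpb*, *Sftpa1* and *Scgb1a1* were listed at 0 in both libraries, and *Nkx2-1* had 0.0444 and 0.0216 FPKM.

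Averaged over the libraries, 20 of the 36 genes reached 1 FPKM and are called expressed here: 7 integrin alpha, 7 integrin beta and 6 laminin chains. Among these 20, 3 were higher in KPR_restored (*Itga7*, *Lamb2* and *Lamb3*), 4 were lower (*Itga1*, *Itgb1*, *Itgb2* and *Itgb6*) and 13 lay within the threshold. *Itga1* is counted here only because its KPR- value lifts its mean over 1 FPKM. Over all 11231 expressed genes, 12.1% were higher and 9.29% were lower, and the 3 and 4 chains make 15% and 20% of the 20. The median log2 difference was -0.28 for the 14 integrin chains, 0.13 for the 6 laminin chains and 0.0086 for all expressed genes. Of the 14 integrin chains 11 had a difference below 0, and the 6 laminin chains divided into 4 above and 2 below. Below 0 were 49.0% of expressed genes with a known length and 62.1% of those with 4000 bases or more. The counting interval left out 0 for 19 of the 20 chains (95%), against 66.9% of all expressed genes, but between 130 and 29106 estimated fragments stood behind each of these chains in a library.

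These are long transcripts, from 2683 to 11388 bases, and 16 of the 20 have 4000 bases or more. Expressed genes of that length had a median log2 difference of -0.11, with 6.92% higher and 13.0% lower, while those under 2000 bases had a median of 0.087. With each difference centred on the median of expressed genes of the same length class, an alternative chosen after seeing the data, the same 3 chains were higher and the same 4 were lower, but 13 of the 20 differences moved beyond their counting interval. *Itga6* went to -0.19, *Lamc1* to -0.074, *Itga5* to 0.24, *Lamb1* to 0.20 and *Lama3* to 0.28, and *Itga2* (0.027), *Itgb4* (0.0052) and *Lama5* (0.092) turned positive. With it 9 of the 14 integrin chains were below 0 and 5 of the 6 laminin chains above 0.

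The study restores a transcription factor, so the start sites of the chains were searched for the core letters that RUNX proteins bind, TGTGGT and TGCGGT, on either strand. RefSeq windows of 300 bases on GRCm38.p6, from 250 bases before to 50 after the start, were at hand for 23 of the 36 genes (26 windows), 13 of them expressed. Either motif was present in 5 of the 26 windows (19.2%), against 22.4% of 32851 windows of all genes. They were those of *Itga3*, *Itga4*, *Itga8*, *Itgax* and *Lama5*. Of the 16 windows of expressed chains, 2 (12.5%) held a motif. Among them, 0 windows of the called genes *Itga1*, *Itgb1*, *Itgb6*, *Lamb2* and *Lamb3* held these letters. No window was at hand for the called genes *Itga7* and *Itgb2*. A match is a description of the letters and not of binding, and its absence speaks of these windows alone. The 250 bases before the start had a median GC content of 59.8% over the 16 windows of expressed chains, 55.2% over the 10 of the others and 52.4% over all windows.

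The bases before the start are given for the most abundant chain that was lower, for the 2 laminin beta chains that were higher, and for the window of the expressed chain *Itga3* that holds a motif, in capitals, 73 to 68 bases before the start. They run 5′ to 3′ along the gene, from chr8:128685404-128685653 (plus strand) for *Itgb1*, chr1:193301744-193301993 (plus strand, the first of the 2 listed starts) for *Lamb3*, chr9:108479612-108479861 (plus strand) for *Lamb2* and chr11:95069199-95069448 (minus strand, the second of the 2 listed starts) for *Itga3*. The GC content of these stretches was 68.0%, 58.8%, 43.6% and 50.8%. The starts are those of RefSeq and differ from the GENCODE M21 gene positions given below. By those positions the *Lamb3* and *Itga3* stretches lie inside the gene, and the *Lamb2* stretch runs into it.
Itgb1: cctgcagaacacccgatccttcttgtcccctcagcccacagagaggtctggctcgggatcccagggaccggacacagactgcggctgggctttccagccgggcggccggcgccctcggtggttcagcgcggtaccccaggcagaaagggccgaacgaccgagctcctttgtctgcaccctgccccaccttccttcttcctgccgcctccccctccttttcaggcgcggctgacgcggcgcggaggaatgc
Lamb3: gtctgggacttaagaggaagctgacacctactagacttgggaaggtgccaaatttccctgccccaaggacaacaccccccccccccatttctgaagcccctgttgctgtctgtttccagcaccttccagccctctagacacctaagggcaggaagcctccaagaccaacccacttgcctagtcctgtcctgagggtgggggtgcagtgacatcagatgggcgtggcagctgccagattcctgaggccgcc
Lamb2: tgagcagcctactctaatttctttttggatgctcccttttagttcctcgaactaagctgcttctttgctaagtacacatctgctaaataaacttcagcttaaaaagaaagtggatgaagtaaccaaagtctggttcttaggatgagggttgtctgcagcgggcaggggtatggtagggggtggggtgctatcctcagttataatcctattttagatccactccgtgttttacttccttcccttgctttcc
Itga3: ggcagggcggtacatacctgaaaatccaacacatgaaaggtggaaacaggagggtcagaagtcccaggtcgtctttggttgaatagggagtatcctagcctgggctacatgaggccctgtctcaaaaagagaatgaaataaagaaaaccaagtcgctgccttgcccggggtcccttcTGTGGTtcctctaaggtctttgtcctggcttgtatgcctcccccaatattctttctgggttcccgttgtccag

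**Figure D1:**
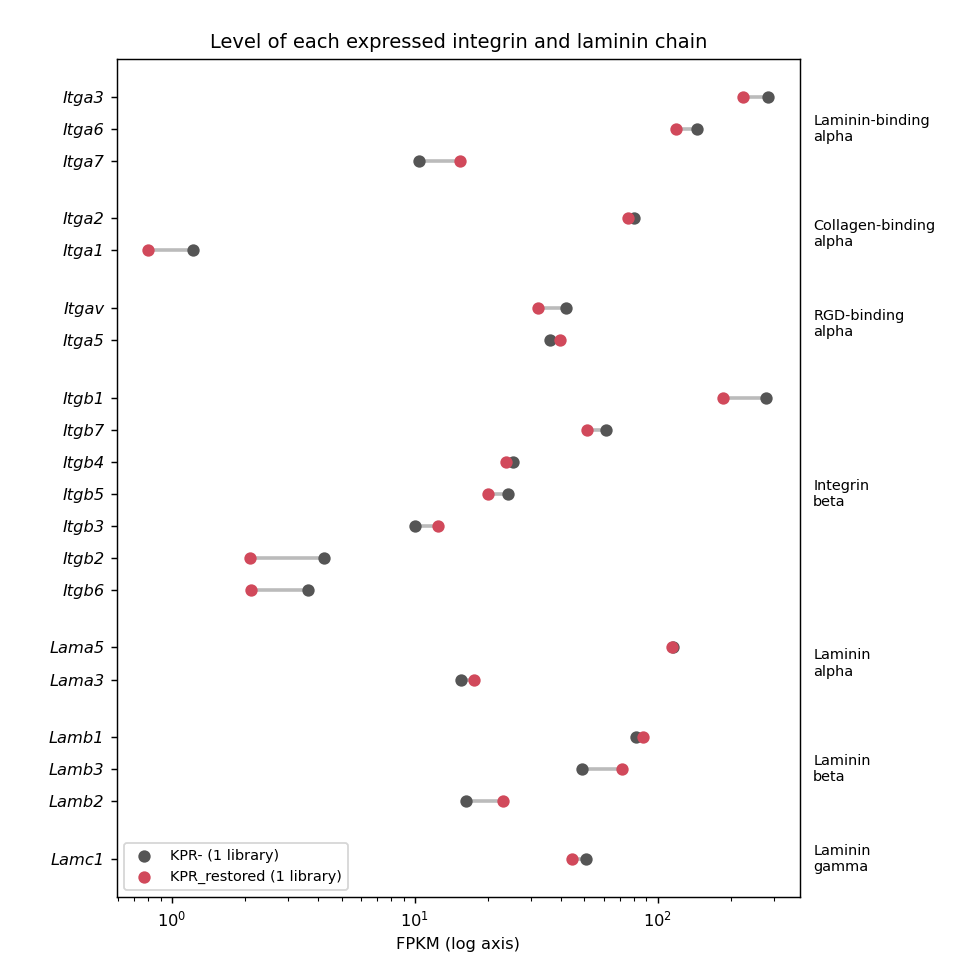
FPKM (log axis) of the 20 expressed chains in the KPR- library (grey) and the KPR_restored library (red), by family and ligand class. *Itga3* and *Itgb1* had the highest levels in both libraries, and the chains span from under 1 FPKM (*Itga1* in KPR_restored) to 286 FPKM (*Itga3* in KPR-).

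The most abundant integrin alpha transcripts were those of *Itga3* and *Itga6*, which bind laminin. *Itga3*, whose product pairs with beta 1 into a main laminin receptor of lung epithelium, had 286 FPKM in KPR- and 224 FPKM in KPR_restored, a log2 difference of -0.35 (-0.38 to -0.33). *Itga6*, whose product pairs with beta 1 or, in hemidesmosomes, with beta 4, had 145 FPKM and 119 FPKM, a difference of -0.29 (-0.33 to -0.25). Both were thus lower in KPR_restored, with intervals wholly below 0, though short of the threshold. *Itga7*, best known as the laminin receptor chain of muscle, went the other way, from 10.4 FPKM to 15.4 FPKM, a difference of 0.56 (0.44 to 0.69). It lies on chromosome 10 of GRCm38 from 128933818 to 128958282 on the plus strand. *Itga3* made up 47.5% of the summed alpha chain FPKM in KPR- and 44.1% in KPR_restored, *Itga6* 24.2% and 23.4%, and *Itga7* 1.73% and 3.04%. Summed over the 3 chains, the FPKM was 442 in KPR- and 358 in KPR_restored, 81.0% of the KPR- level.

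Among the 4 collagen-binding alpha chains, 2 were expressed. *Itga2* had 79.7 FPKM in KPR- and 75.5 FPKM in KPR_restored, a difference of -0.079 (-0.12 to -0.042). *Itga1* stood at 1.23 FPKM and 0.799 FPKM, a difference of -0.62 (-0.89 to -0.35), and passed the minimum of 1 only through its KPR- value. It dropped to -0.31 with a pseudocount of 1, and 685 bases of its exons are shared with a gene model on the same strand. *Itga1* and *Itga2* are neighbours on chromosome 13 of GRCm38, 20995 bases apart. *Itga10* and *Itga11*, the collagen receptor chains of cartilage and fibroblasts, were under 0.3 FPKM in both libraries.

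Of the 4 alpha chains that recognise the tripeptide RGD in ligands such as fibronectin, *Itgav* and *Itga5* were expressed. *Itgav*, the shared partner of several beta chains and a receptor chain for vitronectin and latent TGF-beta, had 42.0 FPKM in KPR- and 32.1 FPKM in KPR_restored, a difference of -0.39 (-0.44 to -0.33). *Itga5*, the fibronectin receptor chain, had 36.2 FPKM and 39.6 FPKM, a difference of 0.13 (0.063 to 0.20). *Itgav* was therefore above *Itga5* in KPR- and below it in KPR_restored.

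*Itgb1*, the common partner of 12 alpha chains, was the most abundant beta chain and the most abundant of the 7 chains past the threshold. Downstream of the GC-rich start region printed above, it had 279 FPKM in KPR- and 186 FPKM in KPR_restored, from about 21986 and 15040 fragments, a difference of -0.58 (-0.61 to -0.55). Its level in KPR_restored was 66.7% of that in KPR-, and its share of the summed beta chain FPKM went from 68.4% to 62.4%. The summed FPKM of its 12 alpha partners went from 602 to 507, so there were 2.16 FPKM of alpha partner per FPKM of *Itgb1* in KPR- and 2.72 in KPR_restored. Some of these partners also pair with other beta chains. *Itgb1* lies on chromosome 8 of GRCm38 (GENCODE M21) from 128685654 to 128733200 on the plus strand.

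*Itgb2*, the beta chain of leukocyte integrins, had 4.24 FPKM in KPR- and 2.11 FPKM in KPR_restored, a difference of -1.01 (-1.33 to -0.70), the lowest among the 20 chains. With the shortest coding transcript in place of the longest RefSeq one, only about 14 and 7 fragments stand behind it and the interval is -2.59 to 0.37. Its alpha partners *Itgal*, *Itgam*, *Itgax* and *Itgad* had at most 0.0409 FPKM. Of 11 leukocyte markers, 4 were listed at 0 in both libraries (*Adgre1*, *Cd3e*, *Lyz2* and *Tyrobp*), and the pan-leukocyte gene *Ptprc* was listed at 0 in KPR- and at 0.00892 FPKM in KPR_restored. The summed FPKM of the 11 was 84.2 and 97.8, nearly all of it *Cd14* with 76.7 and 88.0 FPKM. The macrophage markers *Csf1r* and *Cd68* moved in opposite directions, from 2.68 to 1.19 FPKM and from 3.08 to 6.78 FPKM. In cultures sequenced in bulk, fewer cells of a type and less RNA per cell cannot be told apart.

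*Itgb6*, which with *Itgav* forms the epithelial receptor that activates latent TGF-beta, had 3.64 FPKM in KPR- and 2.11 FPKM in KPR_restored, a difference of -0.79 (-1.04 to -0.54). *Itgb1*, *Itgb2* and *Itgb6* were the 3 chains whose whole interval lay below -0.5, and for 0 chains did it lie above 0.5. With the shortest coding transcripts this held for 1 chain, *Itgb1*. The like share over all expressed genes is not given here, so these counts cannot be weighed against it. *Itgb5*, another partner of *Itgav*, had 24.2 FPKM and 19.997 FPKM, a difference of -0.28 (-0.38 to -0.17). *Itgb3*, the beta chain of the vitronectin receptor and of the platelet fibrinogen receptor, had 10.1 FPKM and 12.5 FPKM, a difference of 0.31 (0.20 to 0.42), and was the sole expressed beta chain above 0. Its platelet partner *Itga2b* had 0.467 and 0.577 FPKM. Of 4 platelet markers, *Pf4*, *Gp9* and *Gp1bb* were under 1 FPKM in both libraries, while *Ppbp*, which encodes a chemokine, went from 49.7 to 17.2 FPKM.

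*Itgb4*, the hemidesmosomal partner of *Itga6*, differed little, with 25.5 FPKM in KPR- and 23.8 FPKM in KPR_restored, a difference of -0.10 (-0.17 to -0.030). *Itgb7*, known for lymphocyte homing, was the next most abundant beta chain after *Itgb1*, with 61.3 FPKM and 51.3 FPKM, a difference of -0.26 (-0.33 to -0.18). Its known partners *Itga4* and *Itgae* summed to 0.174 FPKM in KPR- and 0.0846 FPKM in KPR_restored. About 3317 and 2846 fragments stood behind *Itgb7*, which shares no exon bases with another gene of GENCODE M21. It lies on chromosome 15 of GRCm38 from 102215995 to 102231944 on the minus strand.

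**Figure D2:**
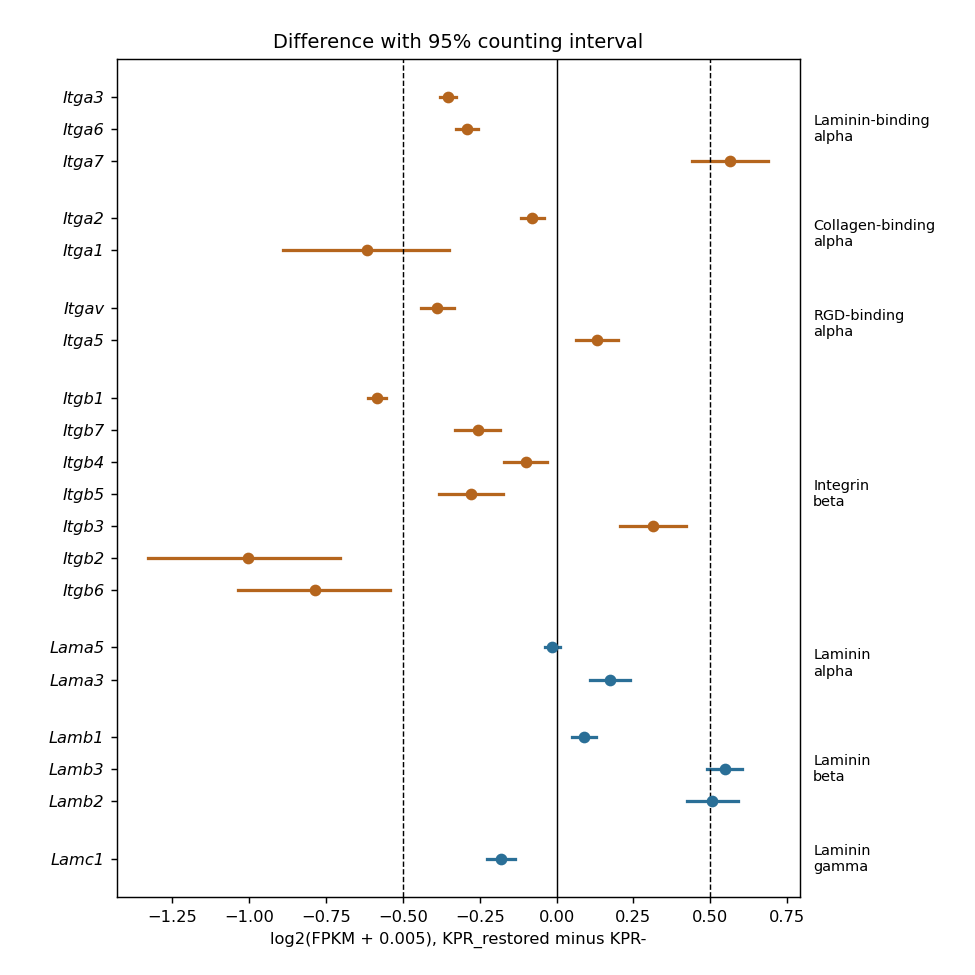
Log2 difference (KPR_restored minus KPR-) of the 20 expressed chains as points, with 95% counting intervals as bars, integrins in brown and laminins in blue, and dashed lines at the threshold of 0.5 either way. *Itgb1*, *Itgb2* and *Itgb6* lie wholly below the lower line, *Itga7*, *Lamb2* and *Lamb3* lie at or just past the upper one, and *Lama5* lies at 0.

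Among the laminin chains, *Lama5* was the most abundant and did not differ by more than counting error, with 116 FPKM in KPR- and 115 FPKM in KPR_restored, a difference of -0.014 (-0.038 to 0.0095). Laminins with this alpha 5 chain are widespread in adult epithelial basement membranes and bind integrins alpha 3 beta 1 and alpha 6 beta 1. *Lama3*, an alpha chain of epithelial laminins, had 15.5 FPKM and 17.5 FPKM, a difference of 0.17 (0.11 to 0.24). *Lama5* made up 88.1% of the summed laminin alpha FPKM in KPR- and 86.8% in KPR_restored, and *Lama3* 11.8% and 13.2%.

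The 3 laminin beta chains were all expressed and all above 0. *Lamb3*, a beta chain of the laminin that anchors epithelia through alpha 6 beta 4, and whose start region is printed above, had 48.9 FPKM in KPR- and 71.4 FPKM in KPR_restored, a difference of 0.55 (0.49 to 0.60). It lies on chromosome 1 of GRCm38 from 193207699 to 193343878 on the plus strand, and *Lamb2* on chromosome 9 from 108479736 to 108490530, also on the plus strand. The printed *Lamb3* stretch lies inside this span, and the printed *Lamb2* stretch runs into the span of *Lamb2*. *Lamb2* had 16.3 FPKM and 23.1 FPKM, a difference of 0.51 (0.42 to 0.59). This is so near the threshold that *Lamb2* lost its call when differences were centred on the median expressed gene (0.498). *Lamb1*, the most abundant of the beta chains, had 81.6 FPKM and 86.8 FPKM, a difference of 0.089 (0.050 to 0.13), and with its shortest coding transcript the interval is -0.14 to 0.32. Summed over the 3, the FPKM was 147 in KPR- and 181 in KPR_restored.

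Among the gamma chains, *Lamc1*, which is part of most laminins, had 50.5 FPKM in KPR- and 44.6 FPKM in KPR_restored, a difference of -0.18 (-0.23 to -0.13). *Lamc3* had 0.120 and 0.202 FPKM. Of these beta and gamma chains *Lamb3* and *Lamb2* passed the threshold.

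A complex can hold no more trimers or dimers than its scarcest chain allows, so the less abundant chain was taken for each of 24 known integrin heterodimers and 13 laminin trimers, as a description of transcript levels and not of protein. All chains had at least 1 FPKM in both libraries for 10 of the heterodimers and 4 of the trimers. In laminin-511 (*Lama5*, *Lamb1*, *Lamc1*) the scarcest chain was *Lamc1*, with 50.5 and 44.6 FPKM. In laminin-521 it was *Lamb2*, with 16.3 and 23.1 FPKM, and in laminin-311 and laminin-321 it was *Lama3*, with 15.5 and 17.5 FPKM. Of these trimers laminin-511 thus had the highest scarcest chain in both libraries. None of the 13 trimers taken holds *Lamb3*, so trimers with that chain are not ranked. Chains are shared between complexes, *Lamc1* by all 4 of these trimers, so these values give no level of each complex.

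Of the laminin receptors, alpha 3 beta 1 had the highest scarcest chain, *Itgb1*, with 279 and 186 FPKM. Alpha 6 beta 1 followed through *Itga6*, with 145 and 119 FPKM. In alpha 6 beta 4 the scarcest chain was *Itgb4*, with 25.5 and 23.8 FPKM. *Itga6* was 5.70 times *Itgb4* in KPR- and 5.00 times in KPR_restored. In alpha 7 beta 1 it was *Itga7*, with 10.4 and 15.4 FPKM. Among the RGD receptors the scarcest chain was lower in KPR_restored for alpha v with beta 1, beta 5 and beta 6, and higher for alpha v beta 3 and alpha 5 beta 1.

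**Figure D3:**
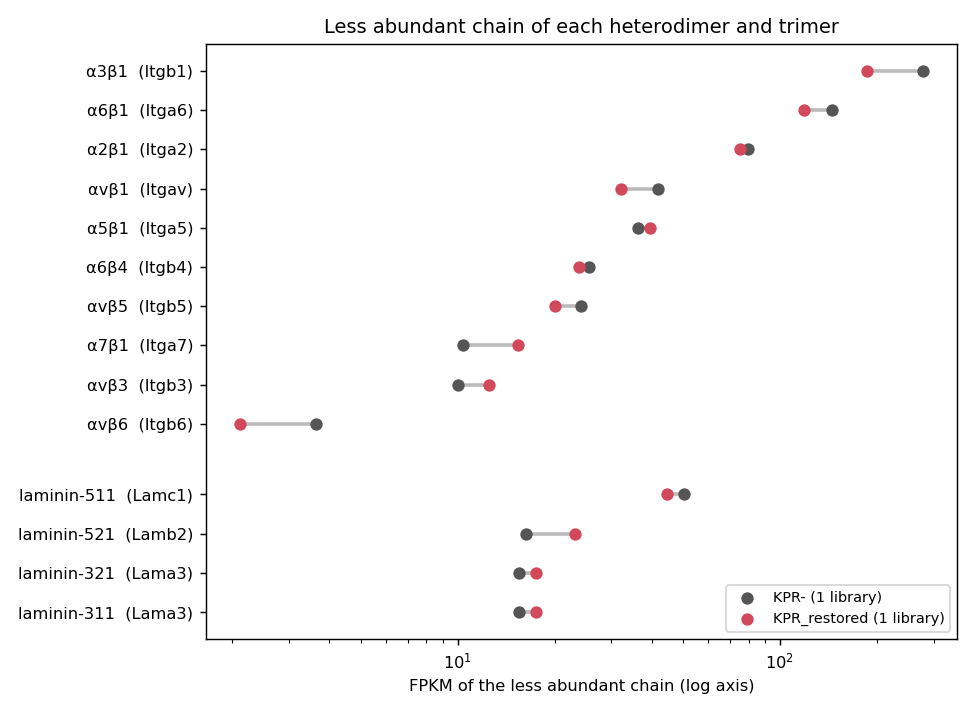
FPKM (log axis) of the less abundant chain, named in brackets, of the 10 integrin heterodimers and 4 laminin trimers with all chains at 1 FPKM or more, in KPR- (grey) and KPR_restored (red). Alpha 3 beta 1 has the highest value in both libraries and shows the change of *Itgb1* from 279 to 186 FPKM, and laminin-511 stands above the other trimers shown.

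Set side by side, the summed FPKM of the 3 laminin-binding alpha chains went from 442 to 358, and that of the 8 integrin beta chains from 408 to 298. Within the beta chains, *Itgb1* alone went from 279 to 186 FPKM. The sum of the laminin alpha chains went from 131 to 132 FPKM and that of the laminin beta chains from 147 to 181 FPKM. That of the 2 laminin gamma chains described here went the other way, from 50.6 to 44.8 FPKM, and is not a total of all gamma chains. The ratio of *Itga3* to *Lama5*, a receptor chain and the most abundant chain it binds, went from 2.47 to 1.95.

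**Figure D4:**
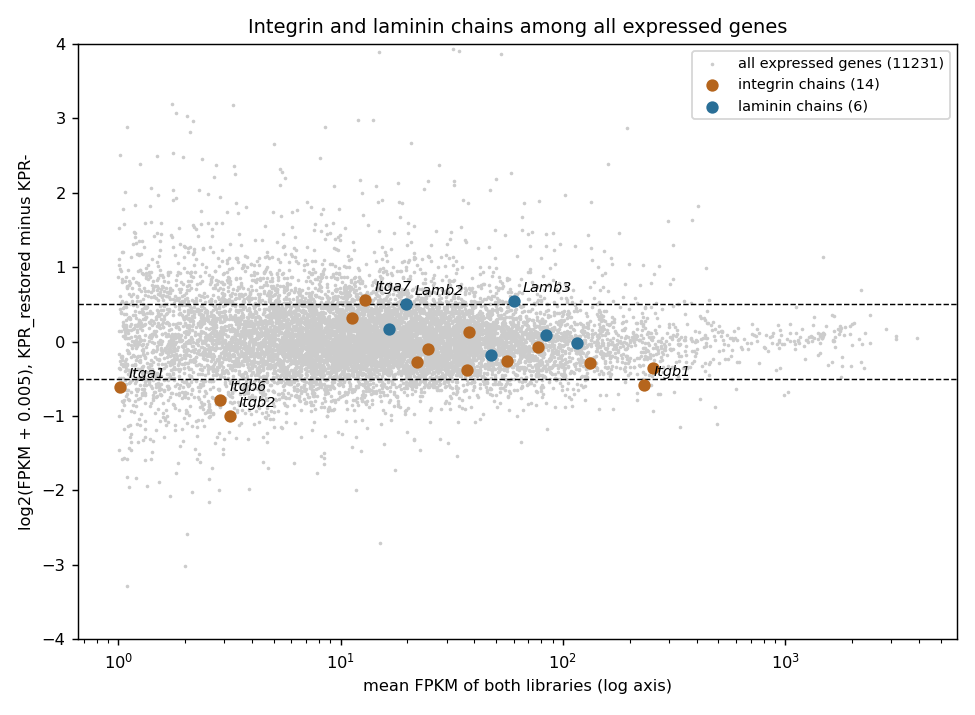
Log2 difference (KPR_restored minus KPR-) against mean FPKM (log axis) for all 11231 expressed genes in grey, with the 14 integrin chains in brown and the 6 laminin chains in blue, and dashed lines at the threshold of 0.5 either way. The 7 named chains past the threshold lie among the other genes, with *Itgb1* far to the right of the other 6, and 21 genes lie outside the difference axis.

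The other 16 genes of the families had at most 0.577 FPKM in either library. They were *Itga10*, *Itga11*, *Itga2b*, *Itga4*, *Itga8*, *Itga9*, *Itgad*, *Itgae*, *Itgal*, *Itgam*, *Itgax*, *Itgb8*, *Lama1*, *Lama2*, *Lama4* and *Lamc3*. *Itga8*, *Itgad* and *Lama2* were listed at 0 in both libraries, *Itgam*, *Itgax* and *Lama4* in KPR_restored, and *Itgb8* in KPR-. No more than 33 fragments in KPR- and 42 in KPR_restored stood behind any of them. Counting intervals left out 0 for 2 of the 16: *Itga4*, with about 18 and 5 fragments, and *Itgb8*, listed at 0 in KPR- and at 0.0769 FPKM from about 14 fragments in KPR_restored. The alpha chains of laminins of muscle, vessels and embryonic basement membranes (*Lama2*, *Lama4*, *Lama1*) were thus not above 0.0295 FPKM.

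Exons of 5 expressed chains overlap another gene of GENCODE M21. On the opposite strand *Itga7* shares 9 bases with *Mettl7b* (3.45 and 7.22 FPKM), and *Itgav*, *Itgb4* and *Lama3* overlap noncoding genes. *Itga1* overlaps a gene model on the same strand, as given above. The libraries were directional, but whether strand was used in estimating FPKM is not given in the sources used here.

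The partners of these chains were described by a list of 48 genes, of which 40 were expressed. Of these, 10 were lower and 1 was higher in KPR_restored, with a median log2 difference of -0.19. Among all expressed genes 9.29% were lower and 12.1% higher, and among those of 4000 bases or more 13.0% and 6.92%. The list was chosen with earlier results of these data known, so these shares are no test of the partners. Of the 12 expressed genes of the basement membrane and of other laminin receptors, 3 were lower and 0 were higher. These were *Nid1*, which links laminin to collagen IV, with 143 FPKM in KPR- and 90.9 FPKM in KPR_restored (log2 difference -0.65, and likewise in brackets below), *Hspg2*, which encodes perlecan, with 37.9 and 21.8 FPKM (-0.80), and *Agrn*, which encodes the laminin-binding proteoglycan agrin, with 82.6 and 55.1 FPKM (-0.58). *Dag1* and *Bcam*, which encode laminin receptors outside the integrin family, had differences of -0.45 and -0.48, just short of the threshold. *Rpsa*, *Sdc1* and *Sdc4* of the same list had differences of 0.10, -0.19 and -0.20. *Plec* and *Dst*, which tie alpha 6 beta 4 to keratin filaments, had differences of -0.26 and -0.34, while *Col17a1*, another part of hemidesmosomes, had 0.0175 and 0.0340 FPKM.

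Among 10 expressed ligands other than laminin, 4 were lower and 0 were higher, beside 9.29% lower and 12.1% higher over all expressed genes. *Thbs1* (thrombospondin-1) had 12.2 and 3.55 FPKM (-1.77), *Ltbp1*, which holds latent TGF-beta in the matrix, 36.8 and 19.6 FPKM (-0.91), *Vcam1* 66.8 and 37.8 FPKM (-0.82), and *Icam1* 12.2 and 8.20 FPKM (-0.57). *Vcam1* and *Icam1* are ligands of integrins whose alpha chains were barely detected here. The RGD ligands *Fn1* (fibronectin) and *Spp1* (osteopontin) were abundant and within the threshold, with 242 and 239 FPKM and with 1667 and 1850 FPKM.

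Of 18 expressed activators, adaptors and membrane partners of integrins, 3 were lower and 1 was higher. The shares were 9.29% lower and 12.1% higher over all expressed genes, and 13.0% and 6.92% over those of 4000 bases or more. *Tln1* (talin), which switches integrins on from inside the cell, had 58.6 and 40.4 FPKM (-0.54). *Vcl* (vinculin) had 66.0 and 43.7 FPKM (-0.60) and *Parva* (alpha-parvin) 39.5 and 24.5 FPKM (-0.69). *Sharpin*, an inhibitor of beta 1 integrin activation, had 17.5 and 26.1 FPKM (0.58). Centring on genes of the same length class ended the calls of *Agrn*, *Tln1*, *Vcl* and *Sharpin* and added that of *Bcam*.

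**Figure D5:**
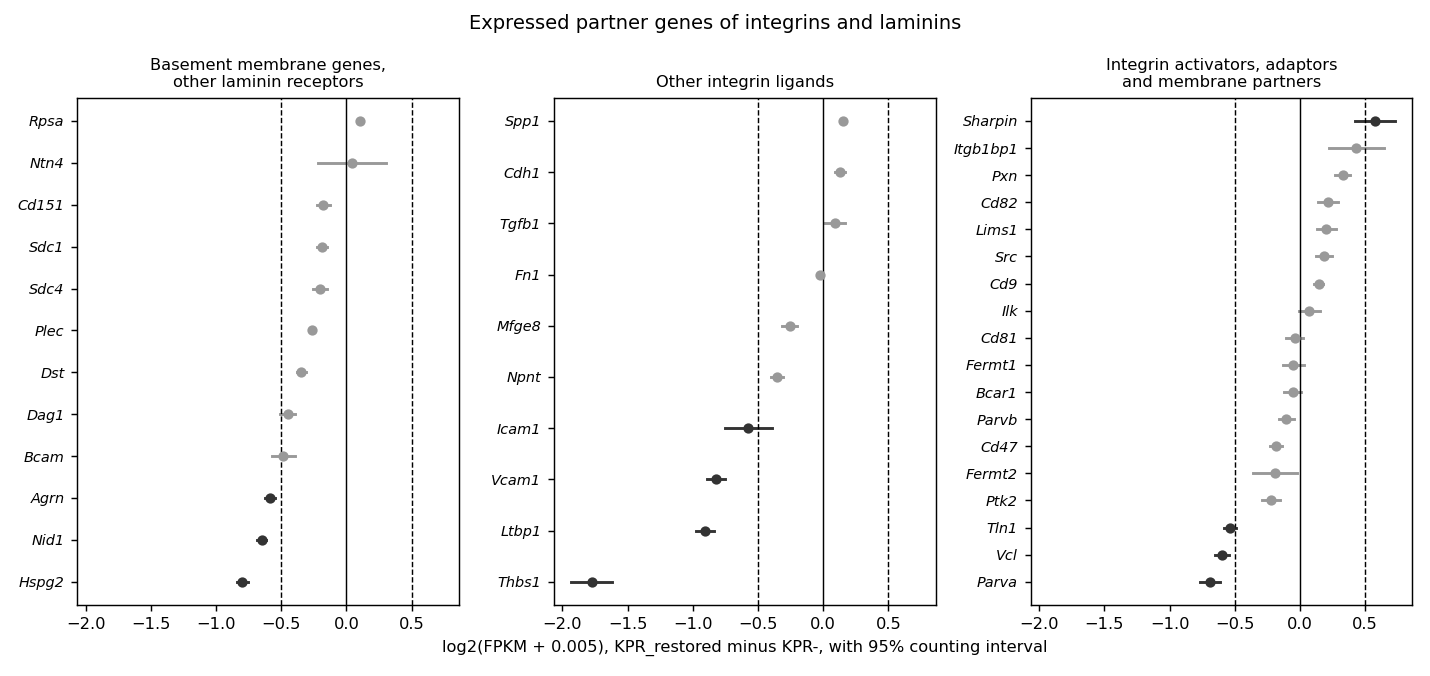
Log2 difference (KPR_restored minus KPR-) with 95% counting intervals for the 40 expressed partner genes in 3 groups, genes past the threshold (dashed lines at 0.5 either way) in black and the others in grey. In each group the called genes lie mostly on the lower side, 10 of 11 in all, and *Thbs1* is farthest from 0. With centring by length class, not drawn here, 8 were lower and 0 higher.

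Markers of other cell types of the lung were low in both libraries, with exceptions. Of 6 endothelial markers 1 was expressed, *Kdr*, with 1.10 and 2.05 FPKM, and the 6 summed to 1.25 and 2.22 FPKM. Of 7 fibroblast markers 1 was expressed, *Col1a1*, with 12.2 and 4.21 FPKM, while *Lum* and *Thy1* were listed at 0, and the 7 summed to 12.7 and 5.35 FPKM. The 4 smooth muscle markers summed to 0.368 and 0.106 FPKM. Of 12 epithelial and lung markers 7 were expressed and 2 of them lower, *Krt7* with 1229 and 743 FPKM and *Foxj1* with 2.78 and 0.656 FPKM. The part of any of these cell types, or of leukocytes and platelets, in the differences of the integrin and laminin chains was not tested.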

How the data were processed

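mRNA was sequenced in 1 KPR- and 1 KPR_restored library. The authors selected poly(A) RNA, made directional libraries, trimmed the reads, which were paired-end, aligned these with TopHat (mm10, per the submitters' processing notes) and deposited FPKM values estimated using Cufflinks. Versions, annotation and read counts are not given in the sources used here. mm10 is the UCSC name of GRCm38, on which GENCODE M21 and RefSeq GRCm38.p6 were used for positions, transcript lengths and promoter windows. Of 23183 gene symbols, 22148 matched GENCODE directly and 679 through a synonym.

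No test between conditions was possible, so both FPKM values, log2(FPKM + 0.005) differences and calls at 0.5 are given without p-values. This scale and threshold were inferred from the study's supplementary expression values, as its text names neither. A pseudocount understates the change of low genes. Genes were expressed at a mean FPKM of at least 1. Depth and a mean fragment length of 215 bases were fitted to the steps of low FPKM in genes with 1 transcript length. Of the 616 (KPR-) and 630 (KPR_restored) genes used, with 0.5 to 5.5 estimated fragments, 76.1% and 78.1% came within 0.1 of a whole number, against 20% for evenly spread values. Fragments per gene were estimated with the longest RefSeq-supported transcript, so they are upper estimates, and 95% Clopper-Pearson limits of their ratio were computed. The depth fit and the limits were tested on simulated libraries, drawn with counting error only and with the same transcript lengths. Such libraries cannot test the choice of transcript.

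The members, lists and complexes were chosen with earlier results of these data known. Of the genes the symbol rule takes, 1 is not reported here, nor is 1 marker gene, and both were left out of the counts and sums of members and lists. All members described at a mean FPKM of at least 1 are named with values, the others by range, and list genes past the threshold up to 4 per direction. *Dag1*, *Bcam*, *Rpsa*, *Sdc1*, *Sdc4*, *Plec*, *Dst*, *Col17a1*, *Fn1*, *Spp1*, *Cd14* and the markers under 1 FPKM were named outside this rule, after their values were seen. Alternatives were pseudocounts, scalings, filters, a threshold of 1 and transcript lengths. Scripts ran in Python 3.11.15 with scipy 1.17.1 for the limits, pandas 2.3.3 and numpy 2.4.6 for tables, and matplotlib 3.10.9 for plots.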

Additional observations from a re-analysis of the deposited data

How the results depend on the processing

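The 3 higher and 4 lower chains were the same with a pseudocount of 0.1, with scaling to the same FPKM total and, chosen after seeing the data, with centring by length class. *Itga1* was not called with a pseudocount of 1 (-0.31), and *Lamb2* was not with that pseudocount (0.48), scaling to the same upper quartile (0.48) or centring on the median expressed gene (0.498), which left 2 higher chains in each case. A minimum mean FPKM of 5 left 1 lower chain (*Itgb1*) because *Itga1*, *Itgb2* and *Itgb6* have lower levels. With no filter on low values 6 chains were higher and 10 were lower, the added ones resting on few fragments, and 2 partner genes were higher and 14 lower. At a threshold of 1, 0 chains were higher and 1 was lower (*Itgb2*), and 0 partner genes were higher and 1 was lower (*Thbs1*). With centring by length class 0 partner genes were higher. The counting interval left out 0 for 15 in place of 19 chains with the shortest coding transcript, which gives fewer fragments (lost were *Itga2*, *Itgb2*, *Itgb7* and *Lamb1*). None of the 7 called chains changed sign under these alternatives, while *Itga2*, *Itgb4* and *Lama5*, all near 0, did with centring by length class, which moved 13 of the 20 differences beyond their counting interval. With upper-quartile scaling or median centring, the settings run for them, no value of a heterodimer or trimer moved beyond its counting interval. No paired analysis was possible because each group has 1 library. About 3 fragments is the limit that a value of 0 allows.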
